A study of Mus musculus with 6 samples.

Results

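The FOXO genes FOXO1 and FOXO3 and 8 genes that FOXO proteins are known to switch on, TXNIP, CCNG2, IRS2, PIK3IP1, SESN1, SESN3, FBXO32 and PDK4, were followed in PA6 cells after 3 h of growth factor treatment. The members are these 10 gene symbols, and every probe that carries one of them in the array's own annotation was taken. That gave 19 of 45281 probes and 10 of 30854 gene names. PA6 cells are mouse stromal cells, used by the study as the layer on which embryonic stem (ES) cells are turned towards endothelium. Confluent monolayers of PA6 cells alone were kept for 3 h in medium free of serum. There were 3 groups, namely cells without added factors (-GFs), cells with 20 ng/ml of recombinant FGF2, and cells with recombinant BMP4, at 10 ng/ml in the labels and at a lower dose in the methods on the co-cultures. Each group held 2 arrays, and in the labels each replicate number stands on 1 untreated, 1 FGF2 and 1 BMP4 array. All groups share the absence of serum, and no group was sampled before the 3 h, so that each comparison sets serum-free wells against each other. In the methods on the co-cultures the serum-free medium held insulin. Here -GFs therefore means without added FGF2 or BMP4, and need not mean without insulin.

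FOXO proteins are forkhead transcription factors that bind DNA at sites built around the letters AAACA. When growth factors activate PI3K, the kinase AKT phosphorylates FOXO proteins, 14-3-3 proteins hold them in the cytoplasm, and their target genes are no longer switched on. When serum or growth factors are withdrawn, FOXO proteins return to the nucleus, and genes that slow the cell cycle, lower glucose uptake, break down protein or answer oxidative stress are transcribed. This regulation acts mainly on the FOXO proteins, which an RNA array does not measure.

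FGF2 lowered 4 of the target genes, where 1.25% of all genes tested were called lower. PIK3IP1, SESN1, CCNG2 and TXNIP fell by 3.12-, 2.83-, 2.37- and 2.17-fold between the means of 2 arrays per group. The FGF2 arrays lay below the -GFs arrays for each of them, as they did for 29.2% of all genes. FBXO32 was lower with FGF2 too, but short of the fold required of a call. IRS2, PDK4 and both FOXO genes passed neither threshold, and with BMP4 no member did.

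The array was the Illumina MouseWG-6 v2.0 BeadChip, on which each probe is a set of beads that carry 1 oligonucleotide. The median intensity lay between 153.4 and 168.1 on the 6 arrays, and 15509 to 16459 probes per array had a detection p under 0.05, that is, were brighter than nearly all negative control beads. Intensities were normalized by a cubic spline and put on the log2 scale, on which a difference of 1 is a doubling. A gene was tested when, in some group, both arrays detected a probe of it, which left 11872 genes, and was represented by its brightest such probe. A gene was called when limma, a linear model fitted on all genes and all 6 arrays, gave a log2 fold change above 1 or below -1 together with an adjusted p under 0.1. The p-values measure the spread between these arrays as labelled, and with 2 arrays per group their number limits the precision. All 15 stromal marker genes looked up, collagens and CXCL12 among them, were detected on all 6 arrays. Of the markers of other cell types, 4 of 6 endothelial genes (CDH5 and PECAM1 among them), 3 of 5 ES cell genes (NANOG and SOX2 among them), 4 of 6 blood cell genes (PTPRC among them), 4 of 7 muscle genes (MYOD1 among them) and 4 of 5 epithelial genes were detected on no array. TEK, POU5F1, CD14 and CDH1 were detected on all 6, CSF1R and DES on 5, KDR on 4, MYOG and DPPA5 on 3 and ACTA1 on 1. In such cultures fewer cells of a type and less RNA per cell cannot be told apart.

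The starts of the genes that fell are printed because forkhead letters were searched in them. RefSeq gives, on GRCm38.p6, a window of 250 bases before and 50 bases from the start for 9 of the 10 members, with 2 windows for SESN1 and none for FBXO32. GTAAACA, a full forkhead site, or its complement TGTTTAC was found in 1199 of 32851 windows of this length (3.65%), and among the members in TXNIP and in 1 window of SESN1. The shorter AAACA or TGTTT, which every GTAAACA or TGTTTAC contains, was found in 50.5% of all windows and in 7 of 10 member windows. Each line runs 5′ to 3′ along the gene, with GTAAACA or TGTTTAC in capitals for TXNIP and SESN1 and AAACA in capitals for CCNG2 and PIK3IP1. A match is a description of the letters only.
TXNIP: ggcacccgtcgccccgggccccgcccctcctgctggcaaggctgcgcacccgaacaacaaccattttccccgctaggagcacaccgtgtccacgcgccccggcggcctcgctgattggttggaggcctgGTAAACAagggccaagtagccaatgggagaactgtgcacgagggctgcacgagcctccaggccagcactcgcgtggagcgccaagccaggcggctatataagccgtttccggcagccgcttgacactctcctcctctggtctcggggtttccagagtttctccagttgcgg
SESN1: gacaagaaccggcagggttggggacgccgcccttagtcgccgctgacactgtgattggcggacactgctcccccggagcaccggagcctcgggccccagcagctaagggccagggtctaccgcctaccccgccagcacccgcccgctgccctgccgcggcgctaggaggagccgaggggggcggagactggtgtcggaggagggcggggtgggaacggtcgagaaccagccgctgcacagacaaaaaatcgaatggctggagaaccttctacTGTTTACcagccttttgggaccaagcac
CCNG2: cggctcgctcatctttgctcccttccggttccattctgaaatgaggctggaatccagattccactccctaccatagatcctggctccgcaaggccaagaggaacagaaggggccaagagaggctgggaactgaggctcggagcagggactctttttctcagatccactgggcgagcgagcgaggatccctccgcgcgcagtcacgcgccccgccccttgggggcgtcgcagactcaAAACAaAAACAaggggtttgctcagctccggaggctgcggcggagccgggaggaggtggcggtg
PIK3IP1: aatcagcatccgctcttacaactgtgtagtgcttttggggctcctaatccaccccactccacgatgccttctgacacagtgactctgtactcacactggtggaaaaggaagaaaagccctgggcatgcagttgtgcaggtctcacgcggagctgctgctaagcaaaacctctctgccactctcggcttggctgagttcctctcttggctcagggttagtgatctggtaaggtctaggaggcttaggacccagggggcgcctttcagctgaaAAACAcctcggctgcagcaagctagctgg

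TXNIP lies at chr3:96557707-96558006 on the plus strand, with GTAAACA at positions -121 to -115 from the start. The printed SESN1 window, chr10:41810324-41810623 on the plus strand, has TGTTTAC at 23 to 29, downstream of its start. The second SESN1 window, chr10:41887189-41887488, is not printed and holds only TGTTT, at -168 to -164 and at -32 to -28. The CCNG2 window, chr5:93267323-93267622 on the plus strand, holds AAACA at -14 to -10 and again at -8 to -4. PIK3IP1 has AAACA once, at 22 to 26 of chr11:3330481-3330780 on the plus strand. The IRS2 and FOXO1 windows also hold the 5 letters, and those of FOXO3, PDK4 and SESN3 hold neither motif, so that the short motif was present both in genes that fell and in genes that were not called. No binding was measured in these cells.

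The FOXO genes themselves came first, since a fall of their targets could go along with a fall of the factors' own RNA. FOXO1 read 9.04 and 8.95 without factors, 8.94 and 9.04 with FGF2, and 8.91 and 8.83 with BMP4 (log2 intensity). All 6 arrays lay close together, and the FGF2 and -GFs arrays overlapped. FGF2 against -GFs gave a log2 fold change of -0.0041 (95% interval -0.34 to 0.34, limma, adjusted p = 0.991), so that a change of FOXO1 beyond 0.34 in either direction lies outside the interval. A second FOXO1 probe was detected on no array.

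FOXO3 reached log2 intensities of 8.05 and 8.44 without factors, 8.26 and 8.62 with FGF2, and 7.87 and 8.20 with BMP4. In each replicate the order was FGF2 highest and BMP4 lowest, although replicate 2 was brighter than replicate 1 in every group. The difference from -GFs was 0.20 with FGF2 (95% interval -0.32 to 0.72, adjusted p = 0.636) and -0.21 with BMP4 (95% interval -0.72 to 0.31, adjusted p = 0.999). Between FGF2 and BMP4 it was 0.41 (adjusted p = 0.339), and blocking on the replicate number gave an adjusted p of 0.0340, at a fold short of a call. In that blocked fit 16.3% of all genes were higher with FGF2 than with BMP4 on the adjusted p alone and 17.9% were lower. Of the 3 FOXO3 probes only this one was detected on any array. The other FOXO genes of the mouse, FOXO4 with 1 probe and FOXO6 with 3 probes, were detected on no array.

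**Figure D1:**
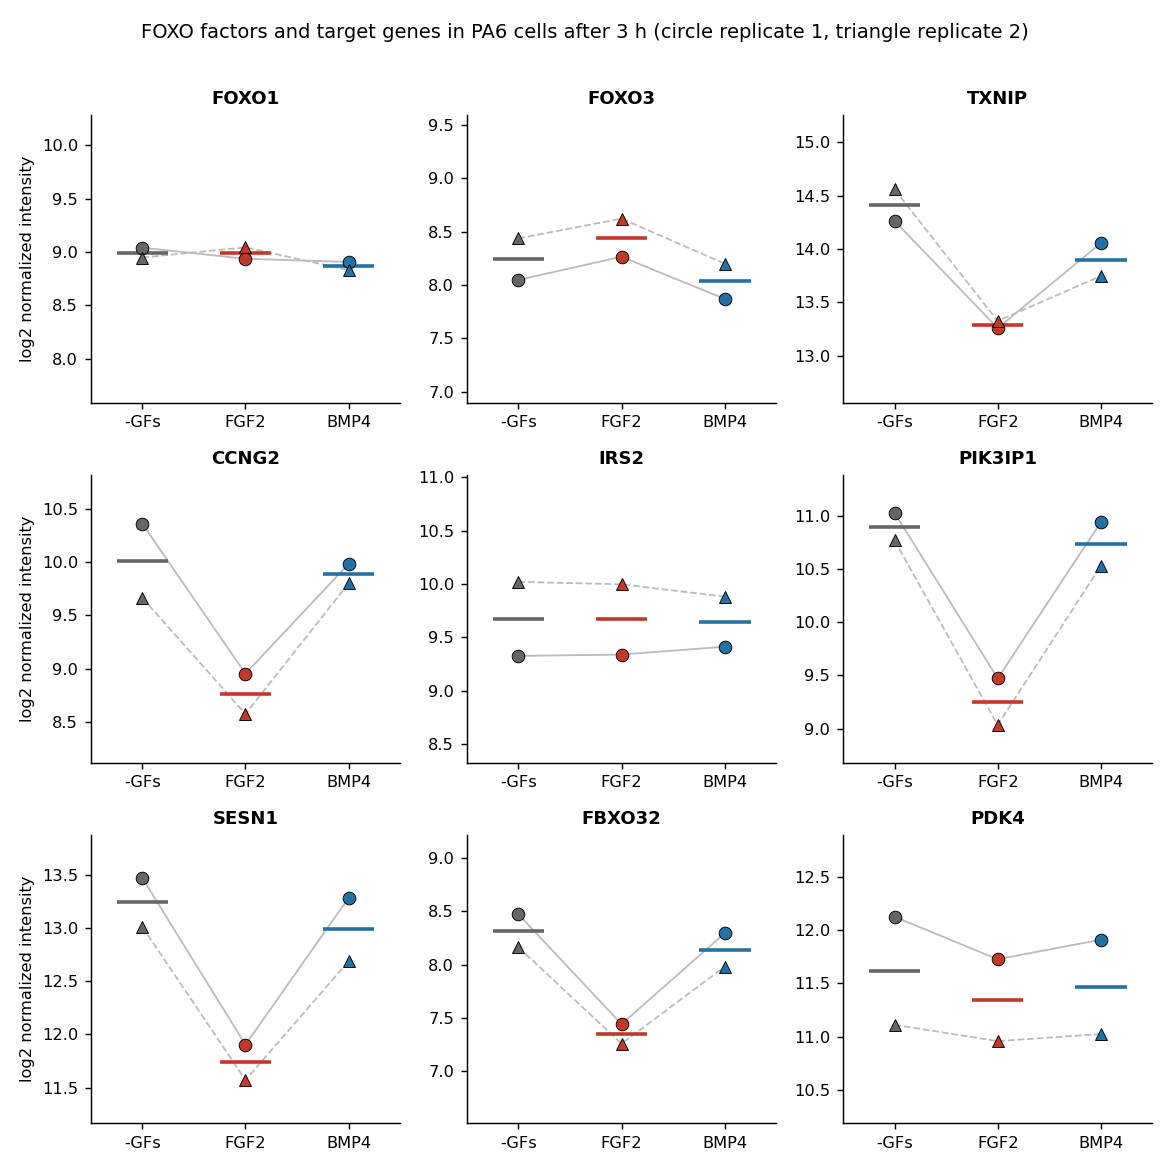
Log2 normalized intensity of the 9 members that could be tested, in -GFs medium, with FGF2 and with BMP4. Circles are replicate 1 and triangles replicate 2, lines join the wells of 1 replicate, bars are group means, and every panel spans the same log2 range. For TXNIP, CCNG2, PIK3IP1, SESN1 and FBXO32 both FGF2 arrays lie below all 4 other arrays. Over all genes 29.2% had both FGF2 arrays below both -GFs arrays, and 28.7% below both BMP4 arrays.

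For FGF2 against -GFs the question was which FOXO targets differ in stroma that had FGF2 in its serum-free medium for 3 h. Of the 9 members tested, 4 were called lower, where 1.25% of all genes were, and none was called higher, where 2.28% of all genes were. On the adjusted p alone 5 members were lower (5.77% of all genes), and 5 had both FGF2 arrays below both -GFs arrays (29.2% of all genes). Over all genes 271 were called higher and 148 lower, against 208 and 209 with median scaling and 433 and 364 with neqc, and each of these scalings left the 4 members called. The median log2 fold change of the 7 target genes tested was -1.12, and that of all genes was -0.02. The members were chosen with earlier results of these data known, so the comparison with all genes is a description only. The counts rest on both FGF2 arrays. Without FGF2 replicate 1 only PIK3IP1 was called, and without FGF2 replicate 2 no member was.

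PIK3IP1, a membrane protein that restrains PI3K, showed the largest fall among the members. Its log2 intensity was 11.03 and 10.77 in -GFs medium, 9.47 and 9.04 with FGF2, and 10.94 and 10.53 with BMP4. The FGF2 arrays stood apart from the rest by more than a log2 unit. FGF2 shifted it by -1.64 on the log2 scale (standard error 0.22, limma, adjusted p = 0.0138), made up of -1.55 in replicate 1 and -1.73 in replicate 2. Only 19 of 11872 genes had a lower value. Without FGF2 replicate 2 it was -1.42 (adjusted p = 0.124, the highest of limma's alternatives, whose lowest was 1.12e-07 with the block).

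SESN1 encodes a sestrin, a stress protein that restrains mTORC1 and supports the defence against peroxides. Its brightest probe read 13.47 and 13.01 without factors, 11.90 and 11.57 with FGF2, and 13.28 and 12.69 with BMP4 on the log2 scale. The FGF2 arrays were again the lowest of the 6. FGF2 changed it by -1.50 (standard error 0.26, adjusted p = 0.0262), with -1.56 and -1.44 in the replicates. With 1 FGF2 array left out the fold stayed over the threshold but the adjusted p did not, at 0.124 and -1.67 when that was replicate 1 and at 0.203 and -1.34 when it was replicate 2. Over limma's alternatives the adjusted p ran from 3.73e-07 to 0.203.

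Other SESN1 probes were lower with FGF2 as well. The second probe read 11.99 and 11.55 without factors, 10.60 and 10.05 with FGF2, and 11.83 and 10.87 with BMP4 (log2 intensity). Its arrays kept the order of the first probe, and the difference was -1.45 with FGF2 (adjusted p = 0.0646 with every probe tested on its own). The third had -0.73 (adjusted p = 0.159). Since neither FGF2 array detected it, its fold is a bound, at least 1.46-fold lower between the group means. SESN3, another sestrin, has 1 probe, which no array detected.

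CCNG2, an unconventional cyclin whose level is high in resting cells, fell as well. Its log2 intensities were 10.36 and 9.66 without factors, 8.95 and 8.57 with FGF2, and 9.98 and 9.80 with BMP4. The -GFs replicates lay farther apart than those of the other groups, yet both remained above the FGF2 arrays. The fitted difference was -1.25 (log2, standard error 0.26, adjusted p = 0.0415), and it was -1.41 in replicate 1 and -1.09 in replicate 2. The call was lost with -GFs replicate 1 left out (-0.90, adjusted p = 0.111), with FGF2 replicate 1 left out (-1.44, adjusted p = 0.154) and with FGF2 replicate 2 left out (-1.06, adjusted p = 0.261), while the block gave 6.09e-06.

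TXNIP, an arrestin-like protein that binds thioredoxin and limits glucose uptake, read 14.26 and 14.56 in -GFs medium, 13.26 and 13.33 with FGF2, and 14.06 and 13.75 with BMP4 (log2 intensity, brighter probe). The FGF2 replicates were nearly equal, and the BMP4 arrays lay between the other groups. The fitted difference with FGF2 was -1.12 (log2, standard error 0.18, adjusted p = 0.0210), with -1.01 and -1.23 in the replicates. The second TXNIP probe, at 13.33 and 13.46 without factors, 11.83 and 11.93 with FGF2 and 12.92 and 12.71 with BMP4, fell further, at -1.51 (adjusted p = 0.00772 with every probe tested on its own), with -1.49 and -1.53. The brighter probe was not called when -GFs replicate 2 was left out (-0.97, adjusted p = 0.0842), nor when FGF2 replicate 1 (-1.09, adjusted p = 0.154) or FGF2 replicate 2 (-1.15, adjusted p = 0.160) was, and the block gave an adjusted p of 2.83e-05.

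FBXO32, a ubiquitin ligase known from wasting muscle, read 8.47 and 8.16 without factors, 7.44 and 7.26 with FGF2, and 8.29 and 7.98 with BMP4 on the log2 scale. FBXO32 was detected on every -GFs and BMP4 array and on neither FGF2 array. The level with FGF2 is therefore a bound, and between the group means FBXO32 was at least 1.66-fold lower than in -GFs medium. The measured difference of -0.97 (log2, standard error 0.19, 95% interval -1.41 to -0.52, limma, adjusted p = 0.0342) missed the fold threshold. It was called without -GFs replicate 2 (-1.12, adjusted p = 0.0700), and its adjusted p rose to 0.120 without -GFs replicate 1, to 0.164 without FGF2 replicate 1 and to 0.242 without FGF2 replicate 2. After a background correction (neqc) it was -2.10 (adjusted p = 0.0269), and with the block the adjusted p was 4.02e-05. Of the other FBXO32 probes, 1 was detected on a single BMP4 array and 1 on none.

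**Figure D2:**
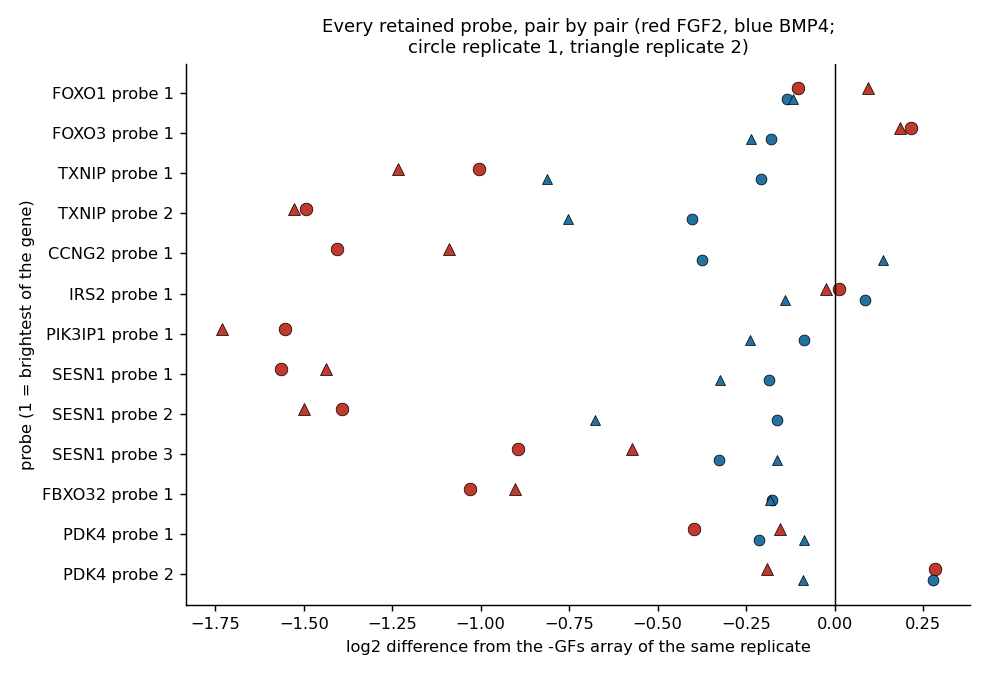
Log2 difference of each FGF2 array (red) and each BMP4 array (blue) from the -GFs array of the same replicate, for the 13 member probes that passed the detection filter. Circles are replicate 1 and triangles replicate 2. All probes of TXNIP, CCNG2, PIK3IP1, SESN1 and FBXO32 are lower with FGF2 in both replicates, whereas FOXO1, IRS2 and the second PDK4 probe lie on either side of 0. Of all genes tested, 39.4% were lower with FGF2 in both replicates.

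IRS2, the adaptor that links insulin and IGF1 receptors to PI3K, did not go along. Its log2 intensities were 9.33 and 10.02 in -GFs medium, 9.34 and 10.00 with FGF2, and 9.41 and 9.88 with BMP4. Replicate 2 was brighter in all groups, and within a replicate the wells differed little. The log2 fold change for FGF2 was -0.0053, with a 95% interval of -0.77 to 0.75 without the block and -0.30 to 0.29 with it (adjusted p = 0.995 and 0.982). Both intervals leave out a fall as large as that of TXNIP.

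PDK4, the kinase that shuts pyruvate out of the mitochondrial oxidation, gave 12.12 and 11.11 without factors, 11.73 and 10.96 with FGF2, and 11.91 and 11.02 with BMP4 (log2 intensity). Here replicate 2 was the dimmer in every group, by 0.77 to 1.01, more than any group differed from another. For FGF2 the log2 fold change was -0.28 (95% interval -1.33 to 0.77, adjusted p = 0.755), and with the block the interval was -0.57 to 0.02 (adjusted p = 0.147). A second PDK4 probe, detected on 5 of the 6 arrays, changed by 0.05 (adjusted p = 0.920 with every probe tested on its own). A fall of PDK4 as large as that of TXNIP lies inside the first interval and outside the blocked one.

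**Figure D3:**
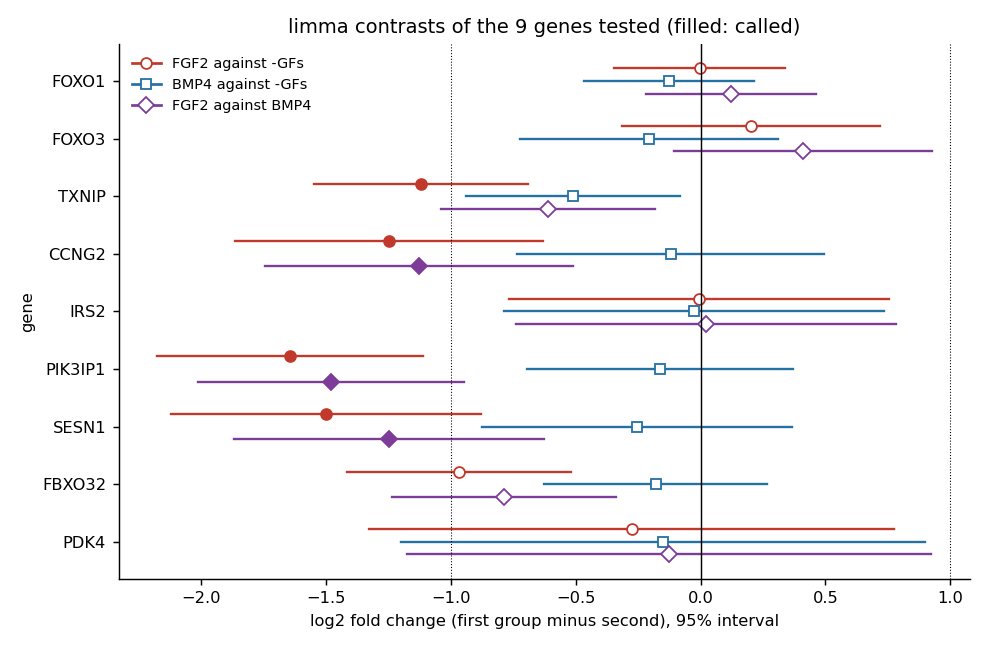
Log2 fold change of the 9 members tested in the 3 comparisons, with the 95% interval of the limma model without a block. Filled symbols are called, and dotted lines mark the fold threshold of 1. PIK3IP1, SESN1 and CCNG2 are called for FGF2 against -GFs and against BMP4, TXNIP for FGF2 against -GFs only.

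BMP4 against -GFs asked whether the other factor moved the same genes, and it shares its control arrays with the comparison above. limma called no member, and over all genes it called 0% lower and 0.00842% higher. At an unadjusted p under 0.05, 1 member was lower (1.04% of all genes), and the unmoderated test named in the methods passed 0 members at its own unadjusted threshold. That member was TXNIP, at -0.51 on the log2 scale (standard error 0.18, unadjusted p = 0.0258, adjusted p = 0.999), or -0.21 in replicate 1 and -0.81 in replicate 2. Both BMP4 arrays lay below both -GFs arrays for TXNIP and for FOXO1 (12.8% of all genes). The second TXNIP probe had -0.58 (-0.40 and -0.75). All 9 values were below 0, where 49.6% of all genes were, and they ranged from -0.51 to -0.03 around a median of -0.16.

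The remaining targets stayed near the -GFs arrays with BMP4. For SESN1 the difference was -0.25 (95% interval -0.87 to 0.37), for PIK3IP1 -0.16 (-0.70 to 0.37), for CCNG2 -0.12 (-0.74 to 0.50) and for FBXO32 -0.18 (-0.63 to 0.27). These intervals leave out falls of the size that FGF2 gave each of them. IRS2 and PDK4 changed by -0.03 and -0.15.

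FGF2 against BMP4 tested the difference between the factors directly. Of the 9 members, 3 were called lower with FGF2 (1.04% of all genes) and none higher (2.02% of all genes). They were PIK3IP1 (-1.48, standard error 0.22, adjusted p = 0.0204), SESN1 (-1.25, standard error 0.26, adjusted p = 0.0485) and CCNG2 (-1.13, standard error 0.26, adjusted p = 0.0618). FBXO32 passed the adjusted p (-0.79, adjusted p = 0.0683), and 4.22% of all genes were lower on this criterion. Undetected with FGF2, FBXO32 was at least 1.46-fold lower between the group means. TXNIP did not pass (-0.61, adjusted p = 0.115), although with the block its adjusted p was 0.00668 and its second probe gave -0.93 (adjusted p = 0.0283 with every probe tested on its own). Without FGF2 replicate 1 only PIK3IP1 was called (-1.70). No member was called without FGF2 replicate 2 or without BMP4 replicate 1, and CCNG2 was not called without BMP4 replicate 2 (-1.22).

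The means of PIK3IP1, SESN1, CCNG2, FBXO32 and TXNIP all ran in the same order, highest without factors, then with BMP4, and lowest with FGF2. These genes were picked as lower with FGF2 than without factors, so only the place of BMP4 was open. PDK4, which was not called, ran in the same order (11.62, 11.47 and 11.34). The share of all genes in this order was not counted. For TXNIP the means were 14.41, 13.90 and 13.29, and neither the step from -GFs to BMP4 nor that from BMP4 to FGF2 was called. Whether its BMP4 step differed from those of the other 4 genes was not tested.

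Differences between the replicate numbers were as large as those between groups for some members. Replicate 2 was dimmer in all 3 groups for CCNG2, PIK3IP1, SESN1, FBXO32 and PDK4 (25.1% of all genes) and brighter in all 3 for FOXO3 and IRS2 (28.1% of all genes). PDK4 had the widest gap, of -1.01, -0.77 and -0.88 in -GFs, FGF2 and BMP4. The summed intensity of 10 adipocyte markers moved with the number too, from 3761 to 7481 without factors, from 3667 to 7053 with FGF2 and from 4014 to 8344 with BMP4. Of these markers only PPARG was detected on all 6 arrays, and 2, FABP4 and RETN, were detected on no array. PPARG differed little between the -GFs replicates (log2 SD 0.017), and more with FGF2 (0.347) and BMP4 (0.267). CFD and LPL differed more, with SDs of 1.447 and 1.138 in -GFs medium. The sum therefore does not show that all of these markers moved together. Within a replicate the sum differed far less between groups, and its part in the replicate differences was not tested.

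**Figure D4:**
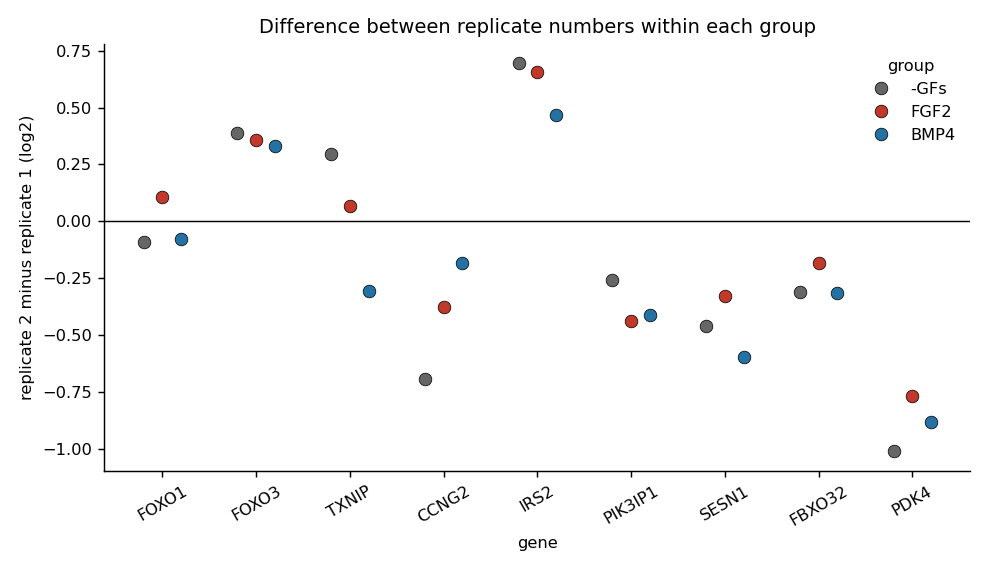
Difference in log2 normalized intensity between replicate 2 and replicate 1 in each of the 3 groups, for the 9 members tested. PDK4 lies between -1.01 and -0.77, IRS2 between 0.47 and 0.69, and the 3 groups of a gene lie mostly on the same side of 0.

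Beyond the members, a wider list of 40 known FOXO targets was looked up, of which 27 were tested. With FGF2, 2 were called lower and 1 higher (1.25% and 2.28% of all genes), and on the adjusted p alone 5 were lower and 3 higher (5.77% and 6.03% of all genes). The median log2 fold change of this list was -0.0003, near the -0.02 of all genes, unlike the median of the members. Both the members and this list were chosen with earlier results of these data known. DDIT4, an inhibitor of mTORC1, went from 12.65 ± 0.12 (log2 intensity, SD, n = 2) without factors to 11.23 ± 0.09 with FGF2, a difference of -1.42 (adjusted p = 0.00775). USP2, a deubiquitinase, fell by 1.06 (adjusted p = 0.0294). KLF2, a zinc finger transcription factor, went the other way, from 10.97 ± 0.24 (SD, n = 2) to 12.22 ± 0.09, a rise of 1.25 (adjusted p = 0.0132).

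TRP53INP1, a stress protein named here after its values were seen, had a log2 fold change of -1.43 that was called only with the block (adjusted p = 0.161 without it, 9.43e-07 with it). Its replicates differed widely, with an SD of 0.92 in -GFs medium. With the block 11 genes of the wider list were lower and 6 higher on the adjusted p alone (19.6% and 18.1% of all genes). CDKN1A and BTG1, which restrain proliferation, had values of 0.02 and -0.02. Against BMP4, CITED2 was called lower with FGF2 (-1.06), and KLF2 (1.38) and KLF4 (1.22) higher. BMP4 against -GFs gave no call in this list.

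The PI3K-AKT pathway itself was covered by 33 genes, 23 of them tested. FGF2 lowered 2 (1.25% of all genes), PIK3R3, a regulatory subunit of PI3K (-1.36, adjusted p = 0.0176), and GAB1, a docking protein that recruits PI3K to activated receptors (-1.06, adjusted p = 0.0230). Both were also lower with FGF2 than with BMP4, by 1.40 and 1.04 on the log2 scale. None was called higher (2.28% of all genes), and the median was -0.09. On the adjusted p alone 2 were lower and 1 higher (5.77% and 6.03% of all genes), and with the block 4 were lower and 6 higher (19.6% and 18.1% of all genes). PIK3CB, among these 6, passed the detection filter only through the FGF2 arrays, the group where it was high. IGF1R, the receptor for IGF1, had 0.76 (adjusted p = 0.136 without the block, 0.000731 with it).

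Of 24 genes for proteins that modify or hold FOXO factors, 20 were tested, and FGF2 raised 1 of them (2.28% of all genes). This was YWHAG, a 14-3-3 protein, which went from 11.53 ± 0.02 (SD, n = 2) to 13.10 ± 0.02, a log2 fold change of 1.56 (adjusted p = 0.00490). On the adjusted p alone 5 of these genes were higher (6.03% of all genes) and none lower. They include the 14-3-3 genes YWHAH (0.93) and YWHAZ (0.68), the kinase SGK1 (0.78), which phosphorylates FOXO proteins as AKT does, and SKP2 (0.64), a subunit of a ubiquitin ligase. Other 14-3-3 genes, YWHAB, YWHAE and YWHAQ, had values from 0.11 to 0.24. With BMP4 no gene of either list was called.

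**Figure D5:**
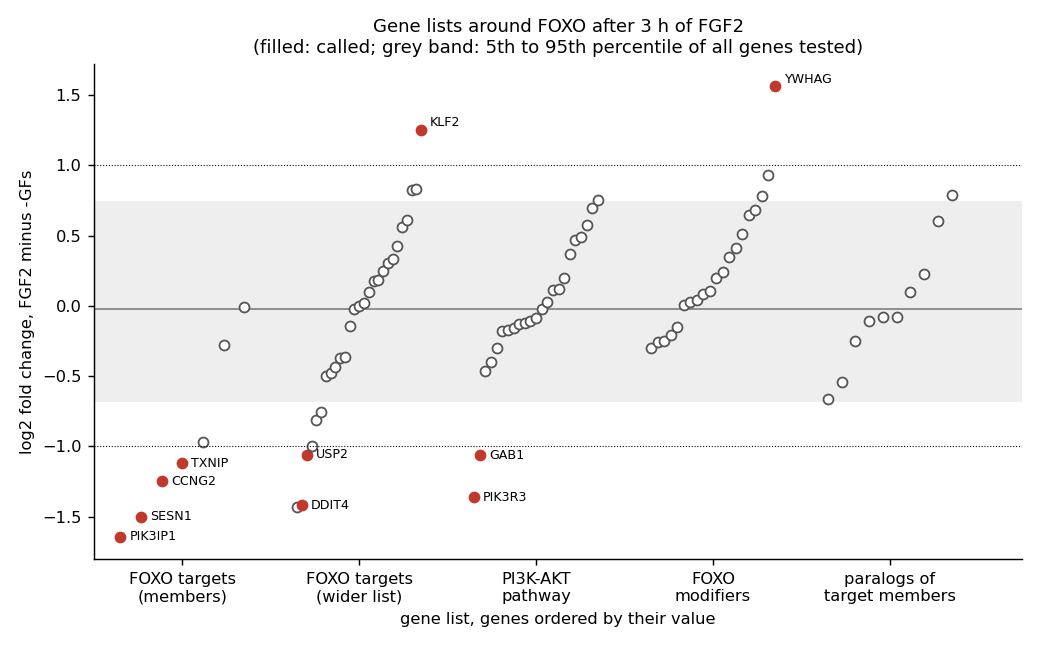
Log2 fold change of FGF2 against -GFs for the genes of 5 lists, each ordered by value. Filled points are called. The grey band spans log2 fold changes of -0.68 to 0.74, with 5% of all 11872 genes below it and 5% above it, and the line is the median of all genes. Of the 7 target genes among the members, 5 lie below the band, where 5% of all genes do.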

How the data were processed

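Pure PA6 cultures were measured on 6 arrays in 3 groups of 2, grouped by the labels. The authors deposited probe intensities, the mean bead brightness without normalization between arrays, with detection p-values. The notes of the submitters name GenomeStudio 2011.01. The table also holds 9 columns without a heading and 6 leftover lines, which were not used.

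A cubic spline normalization, as the methods name it, was written anew for R 4.3.3, with 452 quantiles per array, and log2 was taken. The detection filter kept 16111 probes whose detection p was under 0.05 on each array of some group. limma 3.58.1 was fitted on 3 groups without a block, and every adjusted p is limma's after Benjamini-Hochberg adjustment over all genes tested, two-sided. For 2 against 2 arrays the smallest p of an exact permutation test is 0.333. Where neither array of a group detected a probe, its fold is a bound, the brighter mean against the lowest detected signal. Such a bound compares means and carries no sampling error. Replicate numbers were taken to pair the wells. The labels give the same numbers in each group, and the values of a number moved together (correlations of deviations from group means of 0.602, 0.741 and 0.579).

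Members and lists were chosen with earlier results of these data known. Named are all members and their probes, and of other lists the genes called in a comparison, and single values of other listed genes were chosen after they were seen. Alternatives were other normalizations, detection filters, probe choices, the replicate block, a moderated trend, each array left out, and the t-test of the methods. The methods give that t-test in their general statistics, while for the arrays they name limma. The procedure was tested on simulated data. Promoter windows are RefSeq's on GRCm38.p6.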

Additional observations from a re-analysis of the deposited data

How the results depend on the processing

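BMP4 against -GFs gave 0 member calls under all alternatives run. For FGF2 against -GFs the 4 member calls became 0 to 4 with an array left out (1 without FGF2 replicate 1, 0 without FGF2 replicate 2), and 0 with the t-test of the methods after Benjamini-Hochberg adjustment, against 3 (TXNIP, PIK3IP1 and SESN1) at its unadjusted threshold. That count of 3 also required the fold threshold, which FBXO32 missed at an unadjusted t-test p of 0.0329. Over all 11872 genes the same rule passed 124 lower and 202 higher. With neqc or median scaling the 4 member calls became 5, with FBXO32 added. For FGF2 against BMP4 the 3 calls became 0 to 3 with an array left out (1 without FGF2 replicate 1, 0 without FGF2 replicate 2, 0 without BMP4 replicate 1) and 0 with the adjusted t-test. Over all genes the 271 higher and 148 lower calls of FGF2 against -GFs became 121 and 60 without FGF2 replicate 1, 71 and 35 without FGF2 replicate 2, 433 and 364 with neqc, 716 and 685 with no fold threshold, and 0 and 0 with the adjusted t-test. The 240 and 124 of FGF2 against BMP4 became 92 and 32, 68 and 25, 362 and 276, 575 and 501, and 0 and 0 in the same order. The replicate block gave 4, 0 and 3 calls in the 3 comparisons, of the same members and all lower. Over all genes the blocked rule called 1.44% lower and 2.51% higher for FGF2 against -GFs. For BMP4 against -GFs it called 0.00842% and 0.0758%, and for FGF2 against BMP4 1.21% and 2.29%. The cause of the lost calls was not tested, beyond that a left-out array leaves 1 array in its group, which is assumed to vary like the others.

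Of 510 recomputed fold changes, 460 kept direction and side of the threshold, 29 were weaker, 4 stronger, and 17 changed sign, all in values that were not called and all with an array left out. With FGF2 against -GFs the left-out range was -0.058 to 0.050 for FOXO1, -0.35 to 0.34 for IRS2 and -0.78 to 0.23 for PDK4. With BMP4 against -GFs it was -0.47 to 0.23 for CCNG2, -0.37 to 0.32 for IRS2, -0.37 to 0.042 for PIK3IP1, -0.55 to 0.044 for SESN1 and -0.66 to 0.36 for PDK4. With FGF2 against BMP4 it was -0.31 to 0.35 for IRS2 and -0.57 to 0.32 for PDK4. The called values for FGF2 against -GFs stayed between -1.27 and -0.97 for TXNIP, -1.60 and -0.90 for CCNG2, -1.86 and -1.42 for PIK3IP1, and -1.73 and -1.27 for SESN1. SESN1 against BMP4 was -0.92 with the mean of its probes, and CCNG2 against BMP4 -1.13 with median scaling (adjusted p = 0.102), neither of them called. Dimness limits FBXO32, the third SESN1 probe, SESN3, FOXO4 and FOXO6.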

Other observations

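Of 16 paralogs and partners of the targets, 10 were tested and limma called none with FGF2 or BMP4. FGF2 against -GFs called 1.25% of all genes lower and 2.28% higher, so that 0 of 10 is near the share of all genes. On the adjusted p alone FBXO25, the closest relative of FBXO32, was lower with FGF2 (-0.66, adjusted p = 0.0780), and TXNRD1, which reduces thioredoxin, was higher (0.79, adjusted p = 0.0370). TXNRD1 was detected on both FGF2 arrays, on 1 -GFs array and on no BMP4 array. The detection filter thus kept TXNRD1 only through the group where it was high. With the replicate block 2 were lower (FBXO25, adjusted p = 0.00136, and CCNG1, adjusted p = 0.0146) and 2 higher (TXNRD1, adjusted p = 0.000302, and ARRDC4, adjusted p = 0.00358), where 19.6% and 18.1% of all genes were. CCNG1, the relative of CCNG2, had -0.54 (adjusted p = 0.680 without the block), SESN2 had 0.10 (adjusted p = 0.799), and thioredoxin itself (TXN1) had 0.23 (adjusted p = 0.531). Among the arrestin-like relatives of TXNIP, ARRDC4 had 0.60 (adjusted p = 0.113), ARRDC3 -0.08 and ARRDC2 -0.08. PDK2 and PDK3 had -0.11 and -0.25.

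Both mTORC1 inhibitors named above also had values below 0 with BMP4, short of a call. Over all genes 49.6% had values below 0 in that comparison, and SESN2, the relative of SESN1, had 0.21. DDIT4 had -0.61 and SESN1 -0.25 against -GFs, and USP2 had -0.75, with an adjusted p of 0.999 for each without the replicate block and of 0.148, 0.775 and 0.0503 with it.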
